A study of Mus musculus with 4 samples.

Results

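The genes described here carry glucose through glycolysis, into and out of glycogen, and through the pentose phosphate pathway. They are 35 genes listed by symbol for their place in these pathways, and each of the 35 symbols matched 1 row among the 48432 gene rows of the deposited table. Averaged over both groups, all 35 reached 1 FPKM (sequenced fragments per kilobase of transcript, corrected for library size) and so were among the 11697 genes compared. Slc16a3 reached that mean through its value in 1 group, since it stood under 1 FPKM in the control.

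RNA was sequenced from cardiomyocytes isolated from mouse hearts by Langendorff perfusion, from 2 groups of 2 libraries. The MHC control group carried the genotype labelled MHC, and the Rbfox2 OE group carried the genotype labelled RbFox2, an overexpression of the splicing regulator RBFOX2. Mice of both groups were C57BL x FVB and received doxycycline in the diet for 3 days, so the controls had the drug as well. The title of the series names the overexpressed form as the non-muscle RBFOX2 isoform and places the work in myotonic dystrophy. The labels give no age or sex, no number of animals per library, and no promoter for the transgene.

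Cardiac muscle draws most of its energy from fatty acids and takes up glucose as a second fuel. Glucose enters through GLUT transporters, is trapped by hexokinase, and is then either broken down to pyruvate and lactate, stored as glycogen, or oxidised in the pentose phosphate pathway for NADPH and ribose. Several steps exist as a form typical of striated muscle or heart and a form found in most tissues, each from its own gene.

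For each group the table held 1 pooled FPKM value of a gene, between bounds set by the authors, and no value per library. Those bounds stand in parentheses after the values. No spread between libraries could therefore be measured and no test was made. A difference is called 2-fold where the log2 ratio (Rbfox2 OE over control, after adding 1 FPKM to each value) was at least 1 in size. Bounds are called separate where the authors' bounds of the groups did not overlap. Rbfox2 itself stood at 14.7 FPKM in control cells and 293 FPKM with Rbfox2 OE. Of 10 cardiomyocyte markers, 9 were measured, and Myh6 was listed at 0 in both groups with a status that marks loci of too many fragments. None of the 35 members carried that status (0 members), and their values lay inside their own bounds.

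Of the 35 genes, 11 differed by 2-fold or by separate bounds, beside 2373 of the 11697 genes compared. Of these 11 members, 9 lay on the lower side. The other 24 members met neither criterion. By sign alone, 27 had a log2 ratio below 0 and 8 above 0, beside 6289 of the 11697 genes compared below 0. The median ratio was -0.63 over the members and -0.06 over all genes compared. A 2-fold lower value was found for 8 members (22.9%), beside 10% of all genes compared (1172 genes). Separate bounds on the lower side were found for 8 members as well (22.9%), beside 9.33% of all genes. On the higher side, 2 members (5.71%) were past 2-fold, beside 6.97% of all genes, and the same number had separate bounds, beside 6.67%. The share of higher members was thus near that of all genes, and the share of lower members was above it by each criterion, without a test. After rescaling without mitochondrial genes and the 10 most abundant genes, 7 members were 2-fold lower, beside 7.73% of all genes, and 2 were higher, beside 9.12%. That rescaling turned the split of all genes past 2-fold from 815 higher and 1172 lower to 1077 higher and 913 lower. On the values as deposited, both lower criteria were met by 7 of the 35 members, beside 868 of the 11697 genes compared. The 7 were Hk2, Pfkfb2, Pfkl, Gys1, Gbe1, Pfkm and Pygm. In these bulk preparations, fewer cells of a type and less RNA per cell cannot be told apart.

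**Figure D1:**
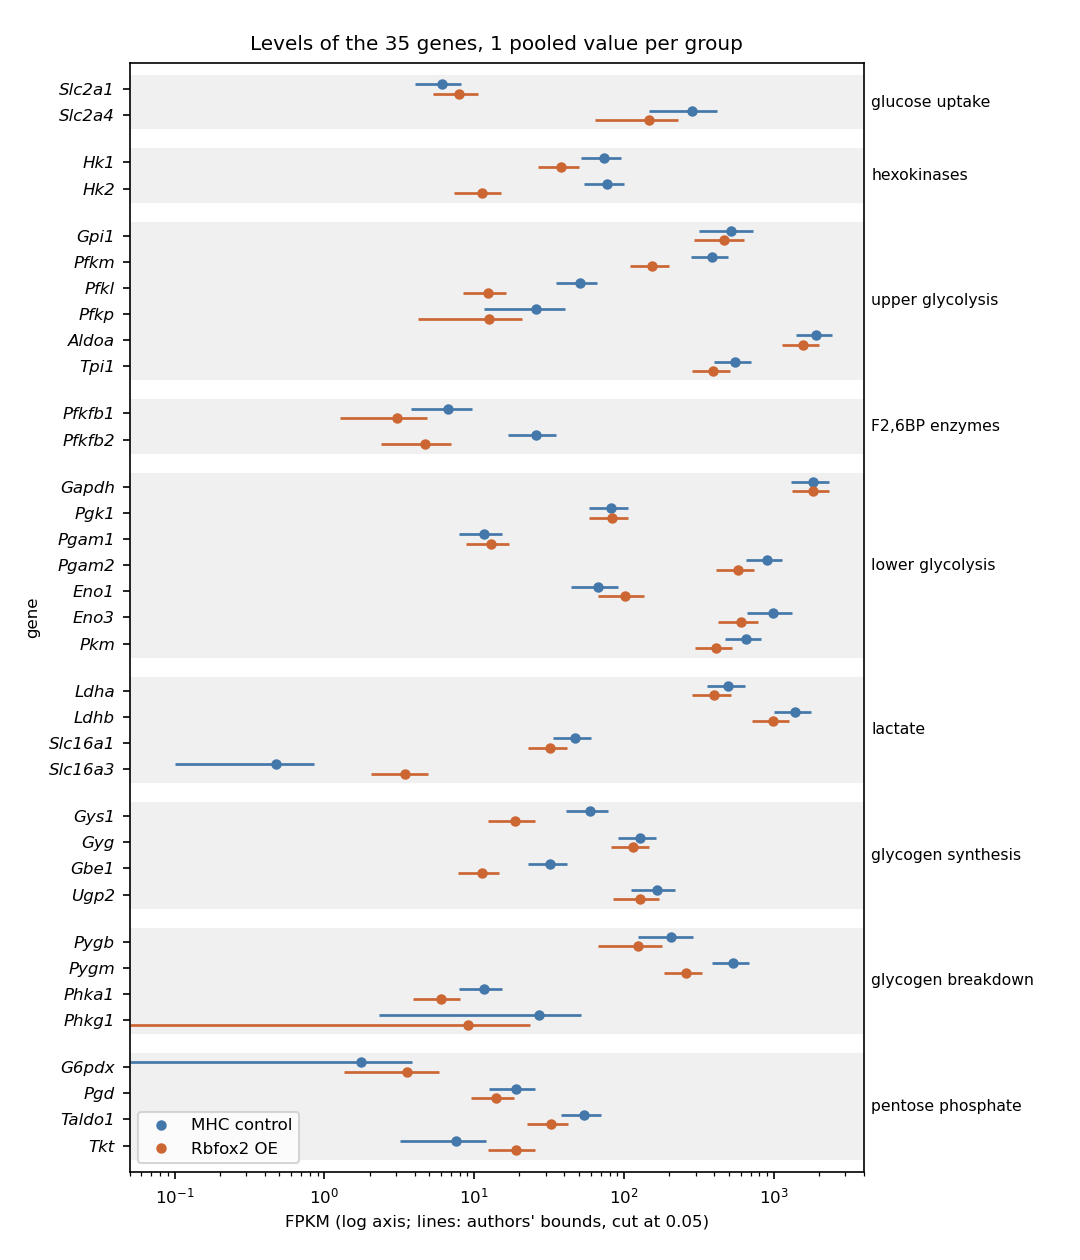
FPKM of the 35 genes (log axis) in MHC control (blue) and Rbfox2 OE (orange), grouped by role, with points for the pooled value of each group and lines for the authors' bounds, cut at 0.05 FPKM. Hk2 lies at 77.3 and 11.2 FPKM with separate bounds, while Gapdh and Pgk1 lie at nearly the same level in both groups.

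Glucose uptake is described by its pair of transporters. Slc2a4, the insulin-responsive GLUT4 of muscle and fat, stood at 283 FPKM (148 to 418) in control cells and 146 FPKM (63.5 to 229) with Rbfox2 OE. Its log2 ratio was -0.95, and the bounds overlapped. Slc2a1, the widely expressed GLUT1, stood at 6.08 FPKM in control cells and 7.93 FPKM with Rbfox2 OE, also with overlapping bounds. On the per-length FPKM scale Slc2a4 was thus the more abundant of the pair in both groups.

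The hexokinases, which phosphorylate glucose on entry, held the lowest log2 ratio of the 35 genes. Hk2, the insulin-regulated form of muscle (GRCm38 chromosome 6, 82725025 to 82774454, minus strand), stood at 77.3 FPKM (54.2 to 100.3) in control cells and 11.2 FPKM (7.35 to 15.1) with Rbfox2 OE. It was 6.89-fold lower, with a log2 ratio of -2.68, and even the nearest pair of bounds gave -1.78. Among all genes compared, 0.308% had a lower ratio than Hk2. Hk1, the form found in most tissues (chromosome 10, 62268855 to 62379908, minus strand), stood at 73.9 FPKM (51.6 to 96.2) in control cells and 38.1 FPKM (26.5 to 49.7) with Rbfox2 OE. Its bounds were separate by a narrow margin and its log2 ratio, -0.94, fell short of 2-fold. When the values were rescaled, the log2 ratio of Hk1 was -0.79 and its bounds overlapped.

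Phosphofructokinase commits glucose to glycolysis, and its muscle and liver forms were both lower in Rbfox2 OE. Pfkm, the muscle form (chromosome 15, 98092589 to 98132451, plus strand), stood at 386 FPKM (279 to 493) in control cells and 155 FPKM (110 to 199) with Rbfox2 OE, a log2 ratio of -1.32. Pfkl, the liver form (chromosome 10, 77986947 to 78010083, minus strand), stood at 50.8 FPKM (35.3 to 66.2) against 12.4 FPKM (8.42 to 16.3), a log2 ratio of -1.95. Both had separate bounds, and Pfkl was the third lowest of the 35 ratios. Pfkp, the platelet form, stood at 25.9 FPKM (11.6 to 40.2) in control cells and 12.5 FPKM (4.21 to 20.8) with Rbfox2 OE. With a log2 ratio of -0.99 it did not reach 2-fold, and its bounds overlapped. Adding 0.1 FPKM in place of 1 gave -1.05, past 2-fold. Pfkp shares its locus in the table, and exon sequence on the opposite strand, with Pitrm1, which stood at 23.4 and 20.2 FPKM.

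Phosphofructokinase is activated by a fructose bisphosphate that bifunctional kinase and phosphatase enzymes make and degrade, and both of the members of that family had ratios below 0. Pfkfb2, the heart form of the bifunctional kinase and phosphatase (chromosome 1, 130689182 to 130729253, minus strand), stood at 25.8 FPKM (16.7 to 34.9) in control cells and 4.69 FPKM (2.37 to 7.01) with Rbfox2 OE. It was 5.51-fold lower, with a log2 ratio of -2.24 and separate bounds, the second lowest of the 35. Of its 50-base sequences, 15.9% also occur in transcripts of other genes, Gm29427 and Mms19. Gm29427 stood at 0.339 FPKM in the control and was listed at 0 in Rbfox2 OE. Pfkfb1, best known from liver and skeletal muscle, stood at 6.72 FPKM (3.78 to 9.65) against 3.07 FPKM (1.26 to 4.87), with overlapping bounds. Its log2 ratio was -0.92, or -1.11 with 0.1 FPKM added in place of 1.

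The abundant enzymes between these steps and pyruvate differed less. Aldoa, the aldolase of muscle, was the most abundant of the 35 genes in the control, at 1926 FPKM, and stood at 1573 FPKM in Rbfox2 OE. Gpi1, the isomerase that follows hexokinase, stood at 520 and 462 FPKM, and Tpi1, the triose phosphate isomerase, at 551 and 394 FPKM. Their log2 ratios were -0.29 for Aldoa, -0.17 for Gpi1 and -0.48 for Tpi1, each with overlapping bounds. In lower glycolysis none of the 7 genes was past 2-fold or had separate bounds (0 genes by either rule). Of the 11697 genes compared, 2373 met at least 1 of these rules. With so few genes, 0 of 7 is not read as a difference from all genes. Gapdh, which oxidises glyceraldehyde phosphate, stood at 1824 FPKM in control cells and 1832 FPKM with Rbfox2 OE, a log2 ratio of 0.01. Pgk1, the phosphoglycerate kinase that makes ATP in the following step, stood at 82.2 and 82.8 FPKM.

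None of the remaining genes of lower glycolysis met either criterion, and their ratios lay on both sides of 0. Pgam2, the muscle phosphoglycerate mutase, stood at 895 FPKM (648 to 1142) in control cells and 577 FPKM (414 to 739) with Rbfox2 OE, and Eno3, the muscle enolase, stood at 990 FPKM (664 to 1317) against 600 FPKM (421 to 778). Their log2 ratios were -0.63 and -0.72. Pgam1, the mutase of most tissues, stood at 11.7 and 12.9 FPKM, and Eno1, the enolase of most tissues, stood at 67.4 FPKM (44.1 to 90.8) against 102 FPKM (67.2 to 136). Pkm, the pyruvate kinase of muscle and many other tissues, stood at 650 and 410 FPKM, with a log2 ratio of -0.66. The bounds overlapped for all 5 of these genes. The values do not separate the splice forms of Pkm.

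Several of these genes have close copies in the genome, which limits their values. The share of 50-base sequences also found in transcripts of other genes was 53.9% for Pgk1, 36.2% for Pgam1, 26.0% for Eno1, 25.8% for Pkm, 24.7% for Gapdh and 21% for Ldhb. For Gapdh these other genes numbered 218, of which 213 were pseudogenes, and their FPKM summed to 192 in control cells and 193 with Rbfox2 OE. The genes that share sequence with Eno1 summed to 12.4 FPKM in control cells and 23.3 with Rbfox2 OE, the same direction as Eno1. The pseudogene Gm5514, which shares sequence with Ldhb, stood at 75.3 and 58.7 FPKM. Among the members that met both lower criteria the share was highest for Pfkfb2, at 15.9%, and 8.83% for Pfkm. It was 0% for Hk2 and Gbe1, 0.405% for Pygm, 0.739% for Gys1 and 0.0298% for Pfkl.

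**Figure D2:**
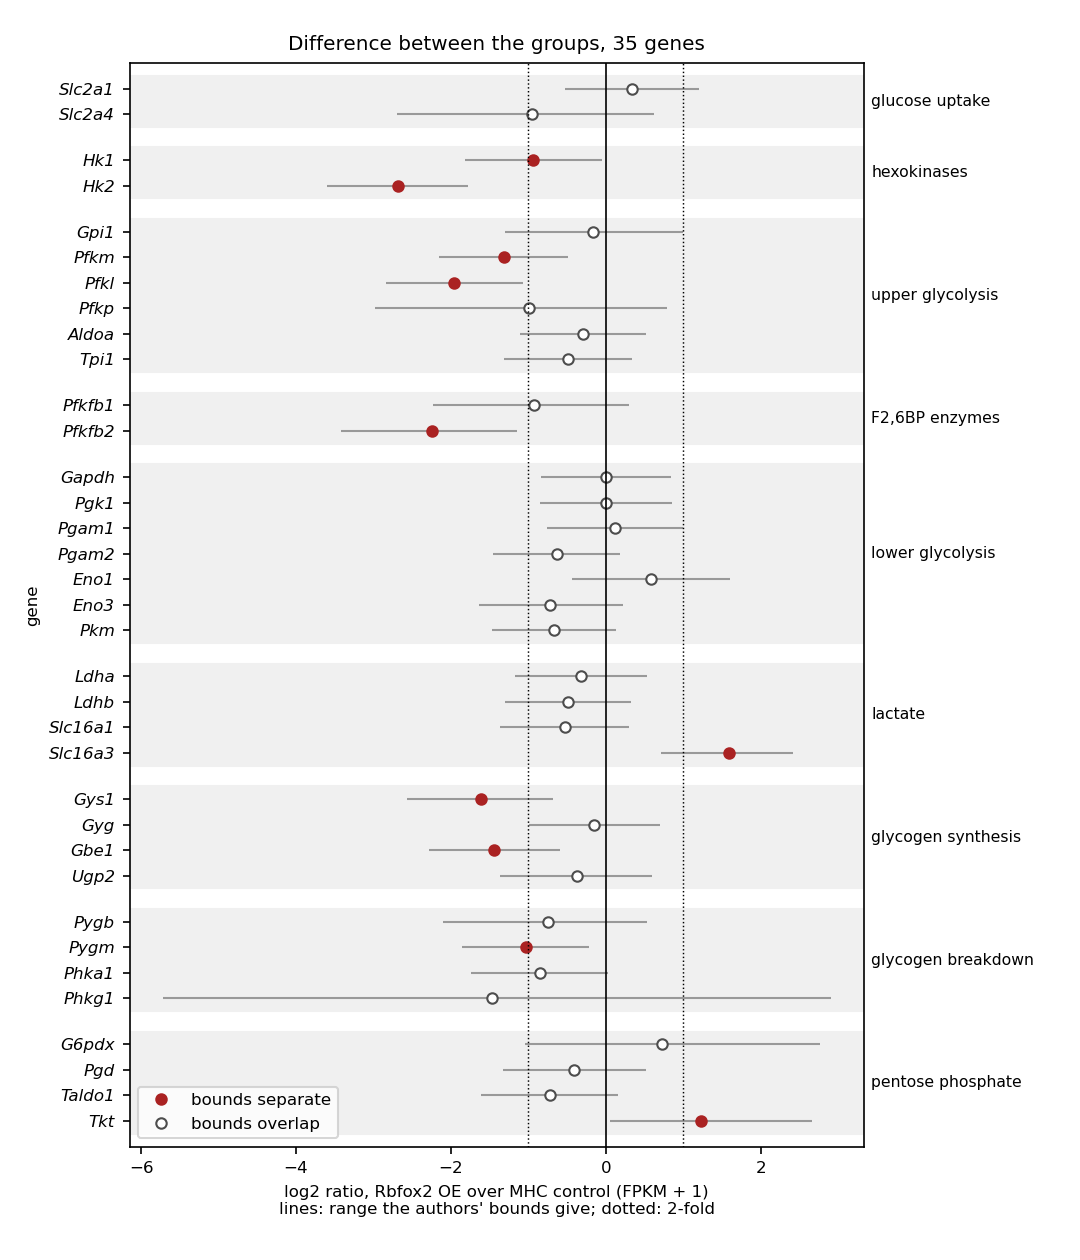
Difference between Rbfox2 OE and MHC control as a log2 ratio for the 35 genes, with lines for the range that the authors' bounds give; filled points have separate bounds and dotted lines mark 2-fold. The 8 filled points on the lower side lie among the hexokinases, phosphofructokinases, Pfkfb2 and the glycogen genes. None of the 7 genes of lower glycolysis has a filled point. Of all genes compared, 9.33% were lower and 6.67% higher by separate bounds.

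Lactate dehydrogenase interconverts pyruvate and lactate. Ldhb, the heart subunit, stood at 1384 FPKM (1009 to 1758) in control cells and 987 FPKM (714 to 1260) with Rbfox2 OE, and Ldha, the skeletal muscle subunit, stood at 497 FPKM (356 to 638) against 399 FPKM (283 to 514). Their log2 ratios, -0.49 and -0.32, came with overlapping bounds. The lactate carriers differed in direction. Slc16a1, the widely expressed carrier MCT1, stood at 47.0 FPKM in control cells and 32.2 FPKM with Rbfox2 OE, with overlapping bounds. Slc16a3, the carrier MCT4 of glycolytic cells (chromosome 11, 120948480 to 120960868, plus strand), stood at 0.476 FPKM (0.101 to 0.851) in control cells and 3.46 FPKM (2.03 to 4.89) with Rbfox2 OE. Its log2 ratio of 1.59 was the highest of the 35, and the bounds were separate. Slc16a1 nevertheless remained the more abundant carrier in both groups.

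Glycogen synthesis was lower at the polymerising and branching steps. Gys1, the muscle glycogen synthase (chromosome 7, 45434844 to 45456619, plus strand), stood at 59.5 FPKM (41.2 to 77.7) in control cells and 18.8 FPKM (12.3 to 25.3) with Rbfox2 OE, a log2 ratio of -1.61. Gbe1, the branching enzyme (chromosome 16, 70313949 to 70569716, plus strand), stood at 32.2 FPKM (22.7 to 41.7) against 11.2 FPKM (7.76 to 14.7), a log2 ratio of -1.44. Both had separate bounds. Exons of Gys1 overlap those of Ruvbl2 on the opposite strand, which stood at 12.2 and 10.9 FPKM. Among the members, the other genes of glycogen synthesis, Ugp2 and Gyg, differed less. Ugp2, which makes UDP-glucose, stood at 166 and 127 FPKM, and Gyg, the glycogenin that primes the chain, stood at 127 and 115 FPKM, with overlapping bounds. After rescaling, the ratio of Gyg changed sign to 0.0072. Pgm2, described below among the other pathway genes, also serves glycogen synthesis and was 2.68-fold lower in Rbfox2 OE. The authors' bounds for Pgm2 did not overlap.

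Of the 4 genes of glycogen breakdown, Pygm met both lower criteria, Phkg1 was past 2-fold only, and the other 2 met neither. Pygm, the muscle glycogen phosphorylase (chromosome 19, 6384399 to 6398459, plus strand), stood at 533 FPKM (387 to 678) in control cells and 259 FPKM (186 to 333) with Rbfox2 OE. Its log2 ratio was -1.04, which became -0.88 after rescaling while its bounds stayed separate. Pygb, the brain form, which the heart also makes, stood at 207 FPKM (124 to 289) against 123 FPKM (66.7 to 180). Phosphorylase kinase activates these enzymes. Its muscle regulatory subunit Phka1 stood at 11.6 FPKM (7.88 to 15.4) against 5.99 FPKM (3.92 to 8.07), and its muscle catalytic subunit Phkg1 (chromosome 5, 129863421 to 129898549, minus strand) stood at 27.0 FPKM (2.30 to 51.6) against 9.09 FPKM (0 to 23.7). Phkg1 passed 2-fold, with a log2 ratio of -1.47, although its bounds overlapped. It shares its locus in the table with Chchd2, at 302 and 280 FPKM, and its bounds are the widest of the 35 ratios. Exons of Phkg1 overlap those of Sumf2 on the opposite strand. Sumf2 stood at 4.13 FPKM (0 to 14.0) in control cells and 8.27 FPKM (0 to 22.0) with Rbfox2 OE.

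The pentose phosphate genes differed in direction. Tkt, the transketolase of the non-oxidative branch (chromosome 14, 30548359 to 30574720, plus strand), stood at 7.55 FPKM (3.19 to 11.9) in control cells and 19 FPKM (12.4 to 25.6) with Rbfox2 OE. Its log2 ratio was 1.23, with bounds separate by a narrow margin. Its partner Taldo1, the transaldolase, stood at 54.2 FPKM (37.8 to 70.6) against 32.5 FPKM (22.5 to 42.5). G6pdx, the dehydrogenase at the entry of the oxidative branch, stood at 1.75 FPKM (0 to 3.85) against 3.57 FPKM (1.35 to 5.79), and Pgd, the next dehydrogenase, stood at 19 and 14.0 FPKM. The bounds of Taldo1, G6pdx and Pgd overlapped. G6pdx shares its locus with Ikbkg, at 15.8 and 13.4 FPKM.

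In 7 families the isoform typical of striated muscle, or of heart where the forms differ, was then set beside the other isoforms. Ldha, abundant in skeletal muscle, stands among the others because Ldhb is the heart form. The 7 striated muscle or heart isoforms were Slc2a4, Hk2, Pfkm, Pgam2, Eno3, Ldhb and Pygm. Their log2 ratios were below 0 in 7 of 7, with a median of -0.95, and 3 (42.9%) were lower with separate bounds. The 8 other isoforms were Slc2a1, Hk1, Pfkl, Pfkp, Pgam1, Eno1, Ldha and Pygb. They were below 0 in 5 and above 0 in 3, with a median of -0.53, and 2 (25%) were lower with separate bounds. Of all 11697 genes compared, 6289 were below 0, the median was -0.06, and 9.33% were lower with separate bounds. By separate bounds the share of lower genes was thus above that of all genes in both lists, without a test. Within a family the share of summed FPKM does not depend on how the groups are scaled. The muscle or heart isoform held a smaller share in Rbfox2 OE in 6 of 7 families, and the ranges that the bounds give overlapped in all 7.

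The share differed most for the hexokinases. Hk2 made up 51.1% of Hk1 and Hk2 in the control (range from the bounds 36.1% to 66.0%) and 22.8% in Rbfox2 OE (range 12.9% to 36.3%). The ranges thus overlapped by a narrow margin. Eno3 made up 93.6% of the enolases in the control and 85.5% in Rbfox2 OE. Slc2a4 held 97.9% and 94.9% of the transporter pair, Pgam2 held 98.7% and 97.8% of the mutases, Ldhb held 73.6% and 71.2% of the dehydrogenase pair, and Pygm held 72.1% and 67.8% of the phosphorylases. Pfkm differed the other way, at 83.4% and 86.2% of the phosphofructokinases. The family sums themselves were lower by 3.07-fold for the hexokinases, 2.58-fold for the phosphofructokinases, 1.93-fold for the phosphorylases and 1.36-fold for lactate dehydrogenase.

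**Figure D3:**
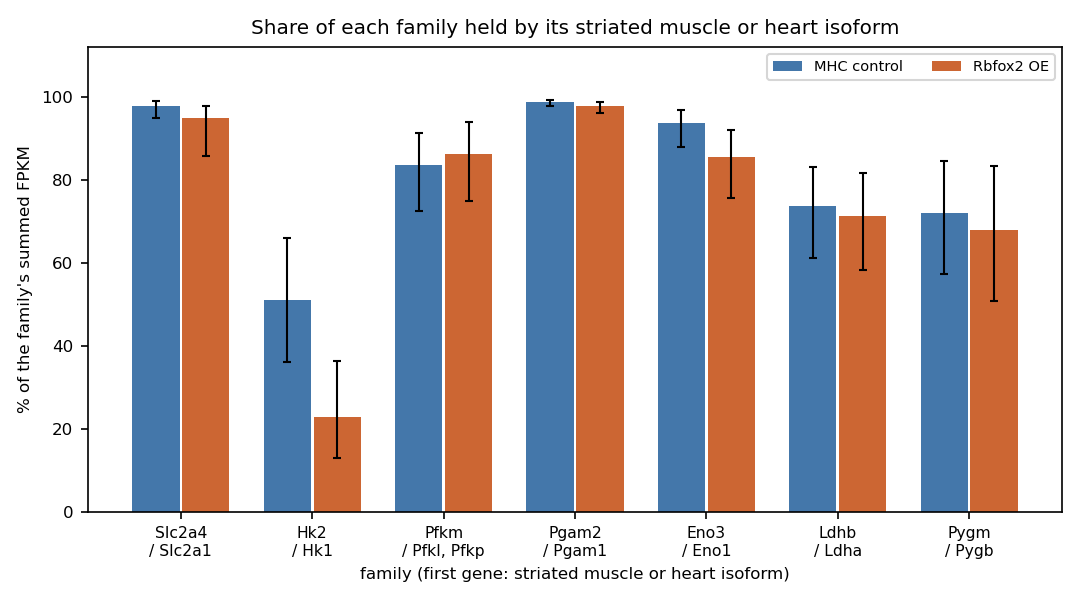
Share of each family's summed FPKM (percent) held by its striated muscle or heart isoform in MHC control (blue) and Rbfox2 OE (orange); error bars give the range from combining the authors' bounds. Hk2 holds 51.1% and 22.8% of the hexokinase pair, and the bars of the other 6 families differ by less than 10 percentage points.

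Markers of other cells were higher in Rbfox2 OE in the same libraries. Summed FPKM of 10 macrophage and leukocyte markers was 127 in the control and 431 in Rbfox2 OE, with 9 of the 10 higher by separate bounds. Of all genes compared, 6.67% were higher by that rule. Sums were 213 and 504 for 8 fibroblast markers (5 higher by separate bounds), 218 and 405 for 8 endothelial markers (3), 140 and 319 for 6 smooth muscle and pericyte markers (3), and 56.6 and 295 for 5 red blood cell markers (4). None of these markers was listed at 0 in either group. The sum of the 9 cardiomyocyte markers with values was 61135 in the control and 40261 in Rbfox2 OE, 1.52-fold lower. Of those 9 markers, 3 (33.3%) were lower by separate bounds, namely Actc1, Tnni3 and Tnnc1, and Ttn and Myoz2 had ratios above 0. That share was above 22.9% for the members and 9.33% for all genes compared. By median log2 ratio the order was the other way, at -0.46 for the 9 markers and -0.63 for the members. The sum of the 35 members was 11626 and 8596, 1.35-fold lower. The part of these other cells in the higher values of Slc16a3, Tkt and Eno1, and in the lower values of the muscle isoforms, was not tested. The 3 lowest ratios of the members were those of Hk2, Pfkfb2 and Pfkl, at 6.89-fold, 5.51-fold and 4.11-fold lower. Of the 9 cardiomyocyte markers the lowest was Actc1, at 2.28-fold lower. These 3 members were picked by their ratios, and what part the mix of cells had in their values was not tested.

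Other genes of the same pathways were taken from a list of 63, of which 48 reached a mean of 1 FPKM. Of these 48, 11 (22.9%) were lower with separate bounds, beside 9.33% of all genes compared, and 2 (4.17%) higher, beside 6.67%. Their median log2 ratio was -0.34, beside -0.06 over all genes compared. All 3 glycogen genes of the list with separate bounds were lower. Pgm2, which in this annotation is the mouse counterpart of human PGM1 and makes glucose phosphate available to either pathway, stood at 118 FPKM (83.9 to 153) in control cells and 44.1 FPKM (30.8 to 57.5) with Rbfox2 OE. Phka2, the liver subunit of phosphorylase kinase, stood at 5.53 and 1.19 FPKM, and Ppp1r3b, a subunit that targets protein phosphatase to glycogen, at 9.30 and 4.16 FPKM, both with separate bounds. Phkb, the shared regulatory subunit, was 2.78-fold lower at 24.4 and 8.77 FPKM, with overlapping bounds. Ppp1r3a, the muscle targeting subunit, had a ratio above 0, at 36 and 47.5 FPKM, and Gaa, the lysosomal glucosidase, stood at 85.5 and 80.3 FPKM, both with overlapping bounds.

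The remaining genes of that list with separate bounds lie on side branches or regulate the pathway. On the lower side these included Fbp2, the muscle fructose bisphosphatase (23.0 and 10 FPKM), and Tigar, which degrades the activator of phosphofructokinase (25 and 9.93 FPKM). Gpd1 and Gpd1l, which link glycolysis to glycerol phosphate, stood at 44.8 and 23.0 FPKM and at 28.2 and 10.8 FPKM. Pdk1, a kinase that inhibits pyruvate dehydrogenase, stood at 60.1 and 22.7 FPKM, while its relative Pdk4 stood at 152 and 205 FPKM with overlapping bounds. Slc2a12, another glucose transporter, stood at 4.19 and 1.33 FPKM, and Pgm5, a structural relative of the phosphoglucomutases, at 62.5 and 20.5 FPKM. Mlxipl, the glucose-sensing transcription factor ChREBP, stood at 12.7 FPKM (7.05 to 18.3) against 3.58 FPKM (1.67 to 5.50), with the lowest ratio of the list at -1.58.

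Both genes of the list that were higher with separate bounds are known regulators. Pfkfb4, a further member of the bifunctional enzyme family, stood at 1.04 FPKM (0.479 to 1.59) in control cells and 4.0 FPKM (2.31 to 5.68) with Rbfox2 OE. Myc, a transcription factor that acts on many glycolytic genes, stood at 3.60 FPKM (2.14 to 5.06) against 10.7 FPKM (6.89 to 14.4). Hif1a, the hypoxia-responsive factor, stood at 16.0 FPKM (10.7 to 21.4) against 29.1 FPKM (19.6 to 38.5), and Pfkfb3 at 16.9 and 25.8 FPKM, both with overlapping bounds. The bifunctional enzymes thus differed in direction by member, with ratios below 0 for Pfkfb2 and Pfkfb1 and above 0 for Pfkfb3 and Pfkfb4. In FPKM, Pfkfb2 was the highest of the 4 in the control and Pfkfb3 the highest in Rbfox2 OE.

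**Figure D4:**
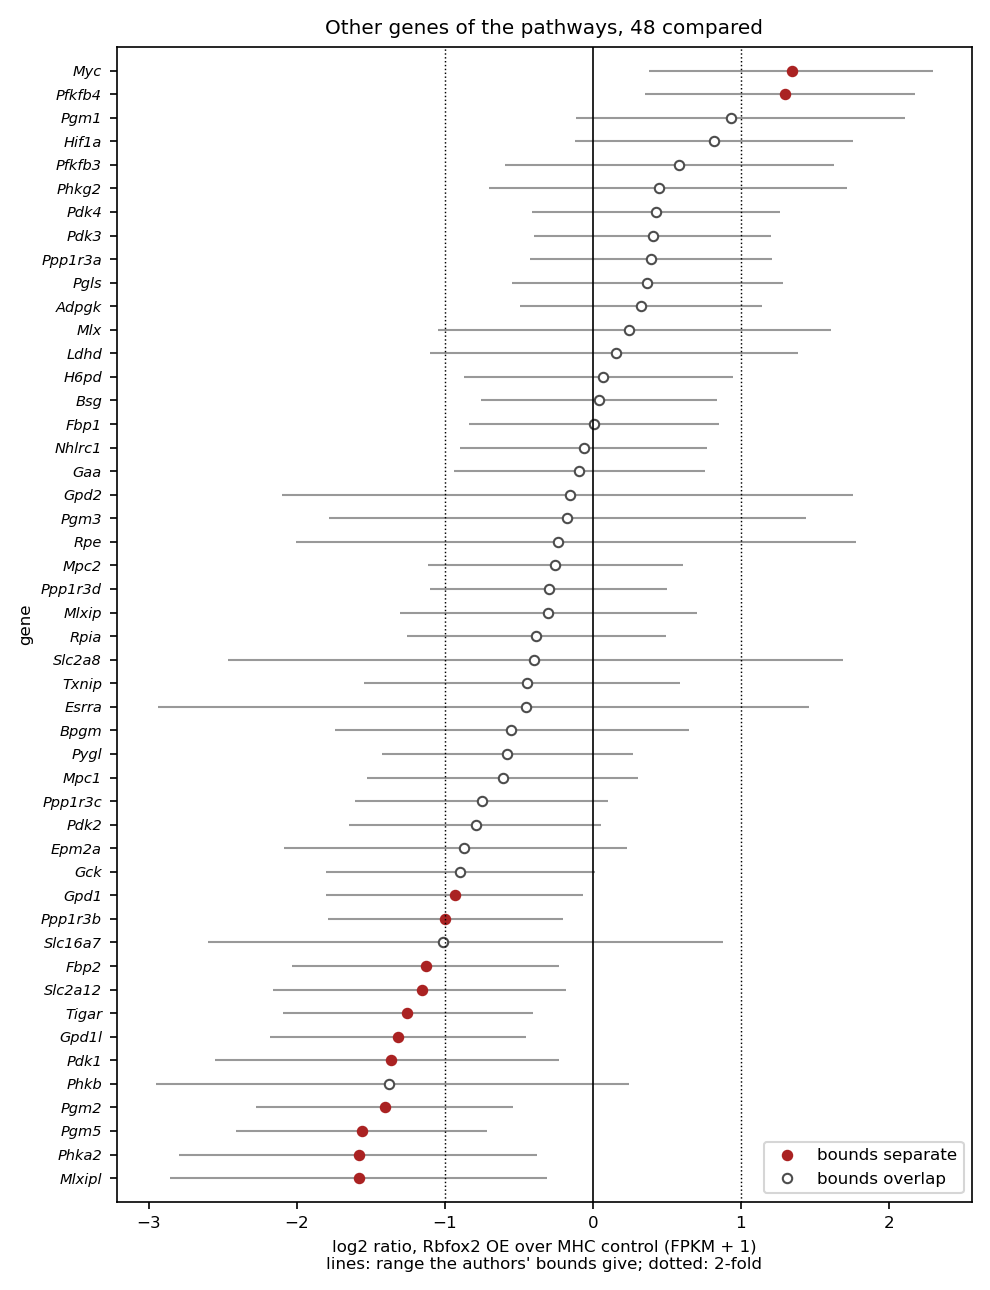
Log2 ratio (Rbfox2 OE over MHC control) of the 48 other pathway genes compared, ordered by ratio, with lines for the range the authors' bounds give and filled points for separate bounds. The 11 filled points on the lower side include Pgm2 and Mlxipl, and Myc and Pfkfb4 are the 2 on the higher side.

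Gene size was set beside the ratios. Across the 35 members Spearman's rho between the genomic span of a gene and its log2 ratio was -0.43, as a description only, since the genes share the same libraries. Over the 11679 compared genes with an annotation it was -0.16. The 8 members lower with separate bounds had a median span of 39968 bases and a median longest transcript of 3732 bases, against 17709 and 2652 bases for the other 27. All compared genes were split by span into 5 bins of equal number, and their median ratio went from 0.05 in the shortest bin to -0.24 in the longest. Of the 35 members, 28 lay below the median of their own bin. From the shortest to the longest bin the medians of the members were -0.48, -0.32, -0.41, -1.12 and -0.97, so they did not fall steadily with span. The shortest bin held Aldoa, Pgam2 and Eno3 among its 7 members, and the fourth bin held Hk2, Pfkfb2 and Pfkm among its 8. The part of gene length in the differences was not tested.

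**Figure D5:**
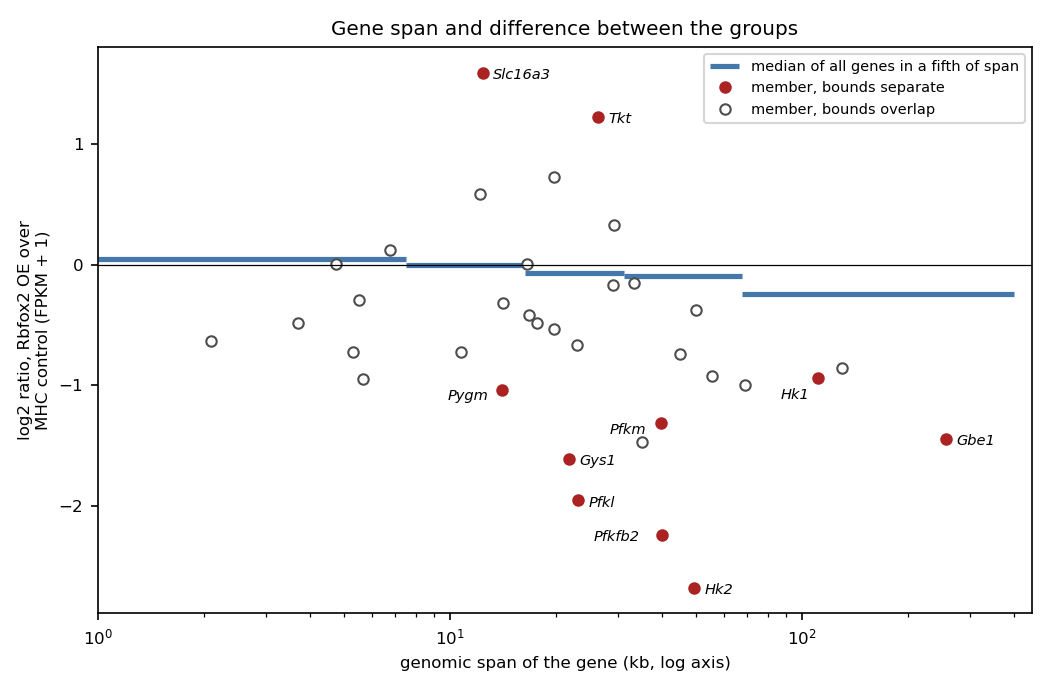
Log2 ratio (Rbfox2 OE over MHC control) against genomic span (kb, log axis) for the 35 genes, with filled points for separate bounds and blue lines for the median of all compared genes in each of 5 span bins. Of the 35 points, 28 lie below the blue line of their bin, and Hk2, Pfkfb2 and Pfkl are the lowest.

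Promoter sequence is shown for the 4 members with the lowest ratios and the 1 with the highest, to set the letters beside the values. RefSeq windows on GRCm38.p6 were found for 34 of the 35 members, 51 windows of 300 bases in all, from 250 bases before to 50 after a start. The letters ACGTG, the core of the hypoxia response element, occurred on either strand in 21 of the 51 windows (41.2%) and in 19.6% of all 32851 windows. GCGTG occurred in 54.9% of member windows and 32.4% of all windows, and CACGTG, the E box, which contains ACGTG on both strands, in 9.80% and 7.15%. CCACGTGG occurred in 0 of the 51 windows and in 0.785% of all. GC content had a median of 60.3% in member windows and 52.7% in all windows, and its part in these shares was not tested. Counted by gene, 18 of the 34 members had ACGTG in a window. Some genes have several windows, so a count by gene is not comparable with the 19.6% of all windows. No share by gene was computed over all genes. Of the 8 members lower with separate bounds, 5 had ACGTG in a window, and so did Slc16a3, which was higher. The 250 bases before the start are printed 5′ to 3′ in the direction of transcription, with ACGTG or its reverse complement in capitals, for Hk2 (chr6:82774455-82774704, minus strand), Pfkfb2 (chr1:130715822-130716071, minus strand, 1 of its 3 windows), Pfkl (chr10:78009808-78010057, minus strand), Gys1 (chr7:45434589-45434838, plus strand) and Slc16a3 (chr11:120948817-120949066, plus strand).
Hk2: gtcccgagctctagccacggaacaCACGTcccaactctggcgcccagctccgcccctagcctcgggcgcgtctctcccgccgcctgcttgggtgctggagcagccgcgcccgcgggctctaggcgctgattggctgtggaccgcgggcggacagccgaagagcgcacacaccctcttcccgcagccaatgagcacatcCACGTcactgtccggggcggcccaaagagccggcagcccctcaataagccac
Pfkfb2: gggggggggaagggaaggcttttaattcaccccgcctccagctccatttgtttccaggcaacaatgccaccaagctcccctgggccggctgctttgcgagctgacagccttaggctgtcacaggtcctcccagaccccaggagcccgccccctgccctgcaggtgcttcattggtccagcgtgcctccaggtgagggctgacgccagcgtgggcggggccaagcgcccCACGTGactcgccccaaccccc
Pfkl: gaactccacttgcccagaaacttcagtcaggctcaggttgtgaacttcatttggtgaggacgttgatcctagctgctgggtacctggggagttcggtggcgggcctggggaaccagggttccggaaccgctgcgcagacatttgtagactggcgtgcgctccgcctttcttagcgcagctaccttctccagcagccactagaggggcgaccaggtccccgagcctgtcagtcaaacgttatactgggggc
Gys1: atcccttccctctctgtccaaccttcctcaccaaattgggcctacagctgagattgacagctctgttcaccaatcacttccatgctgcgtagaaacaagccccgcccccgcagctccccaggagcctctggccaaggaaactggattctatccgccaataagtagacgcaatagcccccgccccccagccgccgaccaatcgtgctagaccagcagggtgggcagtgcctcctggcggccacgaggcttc
Slc16a3: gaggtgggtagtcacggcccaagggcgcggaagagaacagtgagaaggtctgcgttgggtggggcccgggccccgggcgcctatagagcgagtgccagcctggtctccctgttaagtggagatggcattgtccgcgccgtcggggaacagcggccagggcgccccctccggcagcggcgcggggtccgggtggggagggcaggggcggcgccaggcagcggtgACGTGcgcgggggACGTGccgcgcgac

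Hk2 and Slc16a3 each held 2 matches and differed between the groups in opposite directions, at log2 ratios of -2.68 and 1.59. The ratio of Slc16a3, which was near 0 FPKM in the control, depended on the value added. It was 0.63 with 5 FPKM added in place of 1, and 2.63 with 0.1 FPKM. The matches of Hk2 began 226 and 52 bases before the start, and those of Slc16a3 began 27 and 14 bases before it. The printed window of Pfkfb2 held 1 CACGTG, and those of Pfkl, 4.11-fold lower, and Gys1, 3.16-fold lower, held no ACGTG on either strand. GCGTG, not marked in capitals, occurs in the printed sequences of Pfkfb2 and Pfkl. The letters ACGTG were thus found beside both directions, and their presence is a description, not a binding site.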

How the data were processed

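Polyadenylated RNA of isolated mouse cardiomyocytes was sequenced on an Illumina HiSeq4000, per the labels' protocols. The deposited values are FPKM and bounds in FPKM, 1 set per gene and group, in a Cuffdiff table, per the file headers. The submitters' processing notes name STAR 2.4.2a, Cuffdiff 2.2.1 and GRCm38. Which annotation was counted, whether strand was used and what level the bounds have are not given in the sources used here. Depth in reads is unknown, so no counting interval was computed.

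Groups came from the titles. The planned limma fit needs values per library, so a descriptive comparison was made instead: log2 ratios of FPKM plus 1, for names (repeated names summed) with a mean of at least 1 FPKM, without a test. Values were computed with pandas 2.3.3 and tested on simulated data. Positions, overlaps and shared 50-base sequences came from GENCODE on GRCm38. Values in full were given for members past either criterion and for isoform pairs, and names from the list of 63 other genes for separate bounds (2 further genes of it are not reported here); Ppp1r3a, Gaa, Phkb, Pdk4, Hif1a and Pfkfb3 were named after their values were seen. Members and lists were chosen with earlier results of these data known. Alternatives covered pseudocount, filters, threshold, scaling, status and repeated names.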

Additional observations from a re-analysis of the deposited data

How the results depend on the processing

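No paired analysis was possible because each group has only 1 pooled value in the table, and fits without each library in turn were not run for the same reason. How far libraries of a group differed is unknown, and unknown depth limits values near 0 most. Of 277 single-member ratios under other settings, 275 stayed within the range of the bounds, 273 kept their call and 0 called values changed sign. A pseudocount of 0.1 gave 10 members 2-fold lower in place of 8, with Pfkp and Pfkfb1 added, beside 13.3% of all genes. The median over members, -0.63, became -0.48 after rescaling without mitochondrial and the 10 most abundant genes, which moved the median of all genes from -0.06 to 0.07. The isoform medians became -0.79 for muscle or heart and -0.37 for the other forms. Taken as a mean, the ratio of the muscle or heart isoforms was -1.12. A pseudocount of 5 left 0 members 2-fold higher, and a minimum mean of 5 FPKM left 1, with 1 higher by separate bounds, because Slc16a3 was no longer compared. A 1.5-fold threshold gave 18 lower members, beside 22.1% of all genes, and a 4-fold threshold gave 2 lower, beside 1.32%, and 0 higher, beside 1.16%. Among the 18 members alone in their locus, 3 were 2-fold lower, beside 10% of all genes, and 3 lower by separate bounds, beside 9.33%. By either rule 1 of the 18 was higher, beside 6.97% and 6.67% of all genes. This setting was added after seeing the data. With the bounds set to raise each share most, 0 of 7 families had a smaller muscle or heart share. For the other shifts the cause was not tested.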
